A study of Mus musculus with 10 samples.

Results

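Caspases, the proteases that carry out apoptosis, and the genes that restrain or release them were followed in the embryonic cortex after loss of a small nuclear RNA. The set comprised 8 genes picked by name from the 38803 gene symbols of the deposited lists: the caspase genes Casp2, Casp8, Casp9 and Casp6, the inhibitor genes Cflar, Xiap and Birc2, and Diablo, whose product releases caspases from their inhibitors. All 8 were present and passed the filter on low values, which 13522 genes passed. RNA came from embryonic day 12 mouse dorsal telencephalon, the tissue that becomes the cortex, on a mixed C57/Bl6 - 129 SvJ background. The 5 mutant libraries had the genotype Rnu11Flx/Flx::Emx1-Cre+/-. The 5 control libraries had the genotype Rnu11WT/Flx::Emx1-cre+/-. Rnu11 encodes the U11 RNA of the minor spliceosome, which removes a rare class of introns, and Emx1-Cre recombines floxed alleles in dorsal telencephalic progenitors and their descendants. Cre and a floxed allele were thus shared by both groups, and no library with intact Rnu11 on both chromosomes and no Cre was part of the comparison. Blood vessels, microglia and meninges in such a dissection do not descend from Emx1-expressing progenitors.

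Caspases are made as inactive precursors. Initiator caspases are switched on when adaptor proteins bring them together: caspase 8 at death receptors with Fadd, caspase 9 on Apaf1 after cytochrome c leaves mitochondria, and caspase 2 on a platform of Pidd1 and Cradd. Initiators then cleave executioner caspases, and inhibitor of apoptosis (IAP) proteins hold both kinds in check until Diablo, released from mitochondria, binds the IAP proteins. In the developing mouse cortex this route removes surplus progenitors and young neurons, and mice without Casp9 or Apaf1 are known for an overgrown forebrain. RNA levels measure the supply of transcripts for the precursors and inhibitors, not cleavage or activity.

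Rnu11 was the check of the labels. It stood at 712, 473, 511, 1344 and 1421 FPKM (fragments per kilobase, corrected for how many fragments a library holds) in mutants 1 to 5 and at 2386, 2031, 2817, 1913 and 2266 FPKM in controls 1 to 5. The mutant mean was 39.1% of the control mean, and the groups did not overlap (p = 0.00794 by exact permutation, two-sided, the lowest value these group sizes can give). Mutants were uneven in Rnu11, with mutants 1 to 3 at 473 to 712 FPKM and mutants 4 and 5 at 1344 and 1421 FPKM. This unevenness was not tested. Mutant 4, mutant 5 and control 5 formed a separate set of libraries across genotype, called the second set below. Rnu12 stood at 487 to 688 FPKM in them against 5.91 to 33.8 FPKM in the other 7. Differences within each set are therefore given below for the 8 genes, but not for every other gene named. Roughly estimated depths ran from 9770000 to 21400000 fragments, so that a single fragment adds 0.0234 to 0.0512 FPKM to a gene model of 2000 bases. All 9 dorsal progenitor markers averaged over 1 FPKM, while 7 of 10 ventral markers averaged under 1 FPKM and 3 averaged over it. Summed ventral markers lay at 1.45 to 17.3 FPKM in mutants and 2.37 to 56.1 FPKM in controls. Ventral RNA was thus present and uneven between libraries, and its part in the results below was not tested. Summed microglial and macrophage markers, 11 of 13 of them over 1 FPKM on average, lay at 41.4 to 131 FPKM in mutants and 27.1 to 65.5 FPKM in controls. Summed endothelial markers lay at 34.4 to 56.6 FPKM in mutants and 28.6 to 46.5 FPKM in controls, with all 8 over 1 FPKM on average. No defining marker of either list was at 0 in all libraries, and the part of such cells in the results below was not tested. In bulk tissue, fewer cells of a type and less RNA per cell cannot be told apart.

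None of the 8 genes passed the test between mutants and controls over all genes (limma on log2(FPKM + 1), adjusted p from 0.457 to 0.998, threshold 0.05), where 0.155% of all tested genes did. Cflar was the member with an unadjusted p under 0.05, beside 7.69% of all tested genes with such a p and higher values in mutants. It was also the member whose 5 mutant libraries all lay above every control, beside 1.52% of all tested genes. Of the 8 log2 differences 7 were above 0, against 75.7% of all tested genes, and their median was 0.115, beside 0.106 for all tested genes. The 95% intervals of the differences, taken as ratios of FPKM + 1, reached no lower than 0.804 (Casp6) and no higher than 1.52 (Cflar), so a 2-fold change lay outside the interval of every member.

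**Figure D1:**
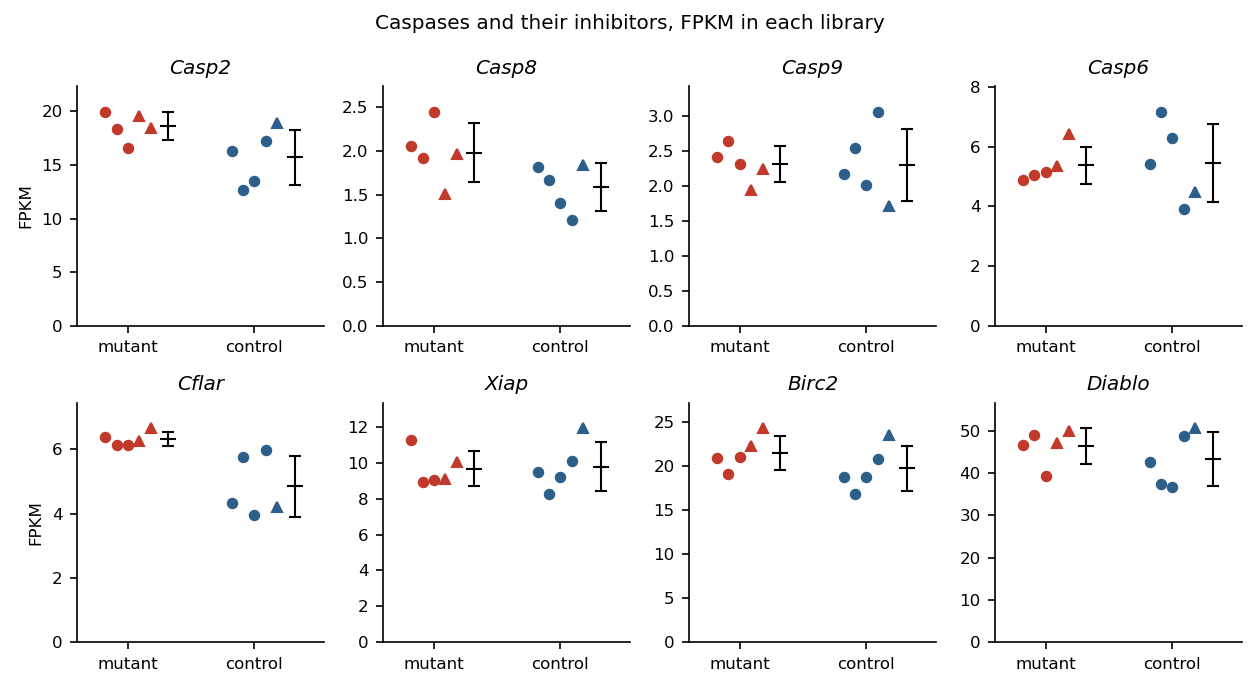
FPKM (vertical axes, from 0) of the 8 genes in 5 mutant and 5 control libraries. Each symbol is a library, triangles marking mutant 4, mutant 5 and control 5, and the bars show mean ± SD. Mutants and controls overlap for each gene except Cflar, whose mutants lie at 6.125 to 6.658 FPKM and controls at 3.958 to 5.995 FPKM.

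Cflar and Casp2 had the smallest p-values of the set, so the sequences around their transcription starts are shown (RefSeq, GRCm38.p6, 250 bases before to 50 bases after the start). They were searched on both strands for a loose form of the binding site of the factor NF-kB (GGG and CC set apart by any 5 bases), for TTTCCCGC, a form of the binding site of E2F factors, and for the p53 half-site. No 2 matches overlapped in either sequence. The Cflar window lies at chr1:58711241-58711540 on the plus strand and the Casp2 window at chr6:42264735-42265034 on the plus strand, with matches in capitals.
Cflar: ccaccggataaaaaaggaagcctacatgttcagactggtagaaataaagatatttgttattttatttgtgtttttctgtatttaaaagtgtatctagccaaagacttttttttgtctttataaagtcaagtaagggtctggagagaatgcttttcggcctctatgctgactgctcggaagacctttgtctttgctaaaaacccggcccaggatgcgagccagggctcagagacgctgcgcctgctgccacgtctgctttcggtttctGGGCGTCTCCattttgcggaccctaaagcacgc
Casp2: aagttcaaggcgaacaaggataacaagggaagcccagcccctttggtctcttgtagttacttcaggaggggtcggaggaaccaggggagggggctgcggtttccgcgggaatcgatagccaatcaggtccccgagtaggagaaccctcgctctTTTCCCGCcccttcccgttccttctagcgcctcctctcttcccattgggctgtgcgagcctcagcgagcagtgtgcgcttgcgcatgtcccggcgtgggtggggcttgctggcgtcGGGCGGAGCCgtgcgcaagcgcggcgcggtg
The Cflar window held an NF-kB match that began 17 bases after the start. The Casp2 window held the same motif 19 bases after the start and TTTCCCGC 97 bases before it. The NF-kB form occurred in 50.8% of 32851 promoter windows of this length, TTTCCCGC in 1.07% and the p53 half-site in 8.36%. Of the 11 windows of the 8 genes, 6 held the NF-kB form, a share close to that of all windows, and they belonged to 6 genes (Casp2, Casp6, Casp9, Cflar, Diablo and Xiap). TTTCCCGC was found in the Casp2 window and the p53 half-site in 1 Birc2 window. GC content was 45.0% in the Cflar window and 63.7% in the Casp2 window, beside a median of 52.7% over all windows.

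Levels per length spread widely among the 8 genes. Averaged over the 10 libraries, Diablo stood highest at 44.8 FPKM, followed by Birc2 at 20.7, Casp2 at 17.2, Xiap at 9.72, Cflar at 5.58, Casp6 at 5.42, Casp9 at 2.31 and Casp8 at 1.78 FPKM. Diablo lay at percentile 87.5 of tested genes and Casp8 at percentile 10.6. Neighbours in this order held their places in all 10 libraries from Diablo down to Cflar, although the ranges of Birc2 and Casp2 overlapped between libraries. Cflar exceeded Casp6 in 5 of 5 mutants and in 1 of 5 controls, so the order of this pair turned between the groups, and their ranges overlapped. Casp6 exceeded Casp9 in all 10, and Casp9 exceeded Casp8 in 8 of 10. Transcripts of the initiator caspases 8 and 9 were thus the scarcest of the set, and that of the initiator caspase 2 ranked higher, at percentile 69.2.

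Casp2 (chromosome 6, 42264985 to 42282508) encodes the caspase that responds to surplus centrosomes and to some forms of DNA damage. It stood at 20.0, 18.4, 16.6, 19.5 and 18.5 FPKM in mutants 1 to 5 and at 16.3, 12.7, 13.5, 17.3 and 18.9 FPKM in controls 1 to 5. Mutants 1 and 4 lay above every control, and controls 2 and 3 were the lowest libraries. Mutants and controls differed by 0.24 on the log2 scale (SE 0.12, 95% interval -0.019 to 0.50, unadjusted p = 0.0663, adjusted p = 0.592, limma). In the first library set mutants 1 to 3 averaged 18.3 FPKM and controls 1 to 4 15.0 FPKM, a log2 difference of 0.28. In the second set mutants 4 and 5 averaged 19.0 FPKM against 18.9 FPKM in control 5. After rescaling to a common median ratio of libraries, the log2 difference was 0.12.

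Casp8 (chromosome 1, 58795374 to 58847503) encodes the initiator caspase of death receptors. Its level was 2.06, 1.91, 2.45, 1.51 and 1.96 FPKM in mutants 1 to 5 and 1.82, 1.66, 1.40, 1.21 and 1.84 FPKM in controls 1 to 5. Of the mutants 4 of 5 lay above all controls, and mutant 4 lay within their range. After rescaling to a common median ratio, 1 of 5 mutants lay above all controls. The log2 difference was 0.20 (SE 0.13, interval -0.070 to 0.48, limma adjusted p = 0.654). The first library set gave 0.32 and the second -0.059, so at these low levels the sets differed in sign, and the difference between sets was not tested.

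Casp9 (chromosome 4, 141793612 to 141815976), which encodes the initiator caspase of the mitochondrial route, stood at 2.43, 2.65, 2.32, 1.94 and 2.25 FPKM in mutants 1 to 5 and at 2.17, 2.55, 2.02, 3.07 and 1.72 FPKM in controls 1 to 5. The mutants lay wholly within the range of the controls. Their log2 difference was 0.016 (SE 0.13, interval -0.27 to 0.30, limma adjusted p = 0.980). Within the first set of libraries it was 0.014 and within the second 0.18, where control 5 stands alone. The gene shares exonic bases with Cela2a and Ctrc on the opposite strand, which were listed at 0.102 FPKM or less in all libraries.

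Casp6 (chromosome 3, 129901425 to 129914103), which encodes the executioner caspase that cuts lamin A, stood at 4.89, 5.07, 5.16, 5.35 and 6.43 FPKM in mutants 1 to 5 and at 5.41, 7.18, 6.29, 3.92 and 4.48 FPKM in controls 1 to 5. Controls held both the highest and the lowest library. The log2 difference was 0.0022 (SE 0.15, interval -0.31 to 0.32, limma adjusted p = 0.998). Within the first set of libraries it was -0.12 and within the second 0.32, where control 5 stands alone. Casp6 was the member whose sets differed most in the difference between mutants and controls, and that contrast was not tested.

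Cflar (chromosome 1, 58711508 to 58758884) encodes c-FLIP, a relative of caspase 8 without protease activity that joins caspase 8 at death receptors and limits its activation. It stood at 6.396, 6.147, 6.125, 6.271 and 6.658 FPKM in mutants 1 to 5 and at 4.321, 5.773, 3.958, 5.995 and 4.196 FPKM in controls 1 to 5. The groups did not overlap, and mutant 3, the lowest mutant, lay close above control 4, the highest control. The mutant mean was 6.32 ± 0.218 FPKM and the control mean 4.85 ± 0.958 FPKM (SD, n = 5 each). This is a log2 difference of 0.34 (SE 0.12, interval 0.076 to 0.60, unadjusted p = 0.0158, adjusted p = 0.457, limma). Both library sets gave a difference above 0, at 0.28 for the first and 0.52 for the second, where mutants 4 and 5 averaged 6.465 FPKM against 4.196 FPKM in control 5.

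The separation of Cflar depended on how libraries were scaled. Controls 1 to 3 had the lowest typical values of the 10 libraries: the median ratio of a library to the geometric mean of all libraries was 1.02 to 1.07 in mutants and 0.860 to 1.09 in controls. After rescaling to a common median ratio, Cflar lay at 5.989, 5.804, 5.850, 6.042 and 6.527 in mutants 1 to 5 and at 4.749, 6.385, 4.602, 5.677 and 3.839 in controls 1 to 5. Control 2 then lay above 4 of the 5 mutants, and the share of tested genes with all mutants above all controls was 0.917%. The log2 difference became 0.23 (unadjusted p = 0.0644, adjusted p = 0.670, limma), while the median of all tested genes moved from 0.11 to 0.0016. Y-linked genes averaged 3.85 to 4.38 on the log2 scale in mutants 1, 3 and 5 and 3.88 in control 4, and 0.01313 at most elsewhere. This sign of sex was thus uneven between the groups and partly mixed with genotype. With Y-linked expression added to the fit the Cflar difference was 0.27 (unadjusted p = 0.0649, adjusted p = 0.921).

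**Figure D2:**
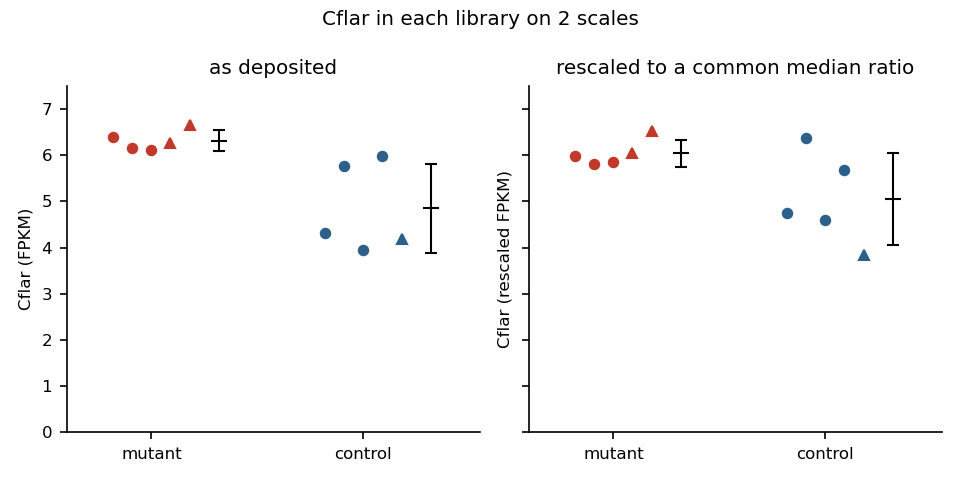
Cflar in each of 5 mutant and 5 control libraries as deposited (left, FPKM) and after rescaling to a common median ratio (right). Symbols are libraries, triangles marking mutant 4, mutant 5 and control 5, and bars show mean ± SD. As deposited the 5 mutants lie above all controls, and after rescaling control 2 at 6.385 lies above 4 mutants.

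Spread between libraries was smaller in mutants for 7 of the 8 genes, all but Casp8, on the log2 scale. The same held for 65.8% of all tested genes. After rescaling it held for 5 of the 8 genes and 54.3% of all tested genes. For Cflar the SD was 0.043 in mutants and 0.23 in controls as deposited, and after rescaling 0.058 in mutants and 0.24 in controls. This difference in spread was not tested.

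Xiap (chromosome X, 42059679 to 42109656) encodes the IAP protein that binds caspase 9 and blocks its activity. It stood at 11.3, 8.95, 9.02, 9.07 and 10.02 FPKM in mutants 1 to 5 and at 9.46, 8.23, 9.19, 10.1 and 11.9 FPKM in controls 1 to 5. The mutants lay wholly within the range of the controls, and control 5 was the highest library. The log2 difference was -0.010 (SE 0.12, interval -0.26 to 0.24, limma adjusted p = 0.985). In the first set it was 0.066 and in the second -0.29, where control 5 stands alone. As an X-linked gene it was set beside Xist: the mutants with Xist over 1 FPKM lay at 8.95 and 9.07 FPKM and those without at 9.02 to 11.3 FPKM, while the controls with Xist lay at 8.23 to 11.9 FPKM and the control without at 10.1 FPKM.

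Birc2 (chromosome 9, 7818227 to 7837064) encodes cIAP1, a ubiquitin ligase that acts on Ripk1 at tumour necrosis factor receptors. It stood at 20.9, 19.1, 21.1, 22.3 and 24.3 FPKM in mutants 1 to 5 and at 18.8, 16.9, 18.8, 20.9 and 23.5 FPKM in controls 1 to 5. As deposited, the 3 libraries of the second set lay at 22.3 to 24.3 FPKM, above the 16.9 to 21.1 FPKM of the other 7. After rescaling to a common median ratio the sets overlapped, with control 3 of the first set at 21.83, above mutant 4 at 21.53 and control 5 at 21.54. The log2 difference between mutants and controls was 0.12 (SE 0.11, interval -0.12 to 0.36, limma adjusted p = 0.761), or 0.11 within the first set and -0.013 within the second. It was 0.0057 after rescaling. Birc2 resembles its neighbour Birc3 in sequence, so reads shared between them may have been counted for either.

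Diablo (chromosome 5, 123509765 to 123524176) stood at 46.5, 49.0, 39.3, 47.1 and 49.97 FPKM in mutants 1 to 5 and at 42.6, 37.5, 36.8, 48.8 and 50.6 FPKM in controls 1 to 5. Both ends of the range belonged to controls. Its log2 difference was 0.11 (SE 0.12, interval -0.15 to 0.36, limma adjusted p = 0.811) as deposited and -0.015 after rescaling to a common median ratio. As deposited it was 0.12 within the first library set and -0.059 within the second, so the sets differed in sign, which was not tested. The gene shares exonic bases with B3gnt4 on the opposite strand, listed at 0.304 to 1.117 FPKM. It also shares them with Gm49027 on the same strand and AC157931.1 on the opposite strand, neither of which was listed. A part of its value is thus uncertain, and its size is not known.

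**Figure D3:**
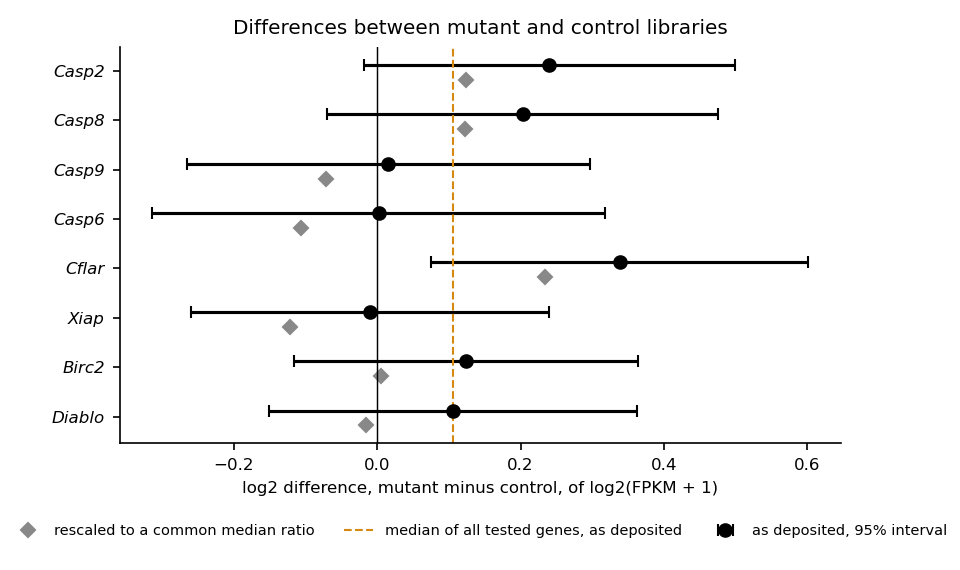
Log2 differences of log2(FPKM + 1), mutant minus control, for the 8 genes. Black points with bars are differences as deposited with 95% intervals, grey diamonds are differences after rescaling, and the dashed line is the median of all tested genes at 0.11. The interval of Cflar, 0.076 to 0.60, lies above 0, and the other 7 intervals include 0.

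Ratios of inhibitor to partner within a library do not depend on how that library was scaled, and are given without a test. The FPKM ratio of Cflar to Casp8 was 2.50 to 4.16 in mutants (median 3.21) and 2.28 to 4.97 in controls (median 2.82). The log2 ratio averaged 1.69 ± 0.26 in mutants and 1.61 ± 0.46 in controls (SD, n = 5 each), with every mutant inside the range of the controls. Xiap to Casp9 likewise lay at 3.37 to 4.67 in mutants and 3.23 to 6.92 in controls. Every mutant lay inside the range of the controls here too.

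Xiap to Diablo lay at 0.183 to 0.242 in mutants and 0.206 to 0.250 in controls. Of the mutants 3 lay below all controls in this ratio and 2 lay within their range. Birc2 to Diablo lay at 0.389 to 0.537 in mutants and 0.428 to 0.511 in controls, with mutants on both sides of the controls. Mean log2 ratios differed between mutants and controls by -0.12 for Xiap to Diablo, -0.040 for Xiap to Casp9, 0.021 for Birc2 to Diablo and 0.084 for Cflar to Casp8. Leaving out 1 library turned the sign for 3 of the 4 pairs. Cflar to Casp8 ran from -0.021 (without control 5) to 0.26 (without control 4), Xiap to Casp9 from -0.14 (without control 2) to 0.13 (without control 5), and Birc2 to Diablo from -0.030 (without mutant 3) to 0.085 (without mutant 2). Xiap to Diablo stayed below 0, from -0.17 to -0.072.

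**Figure D4:**
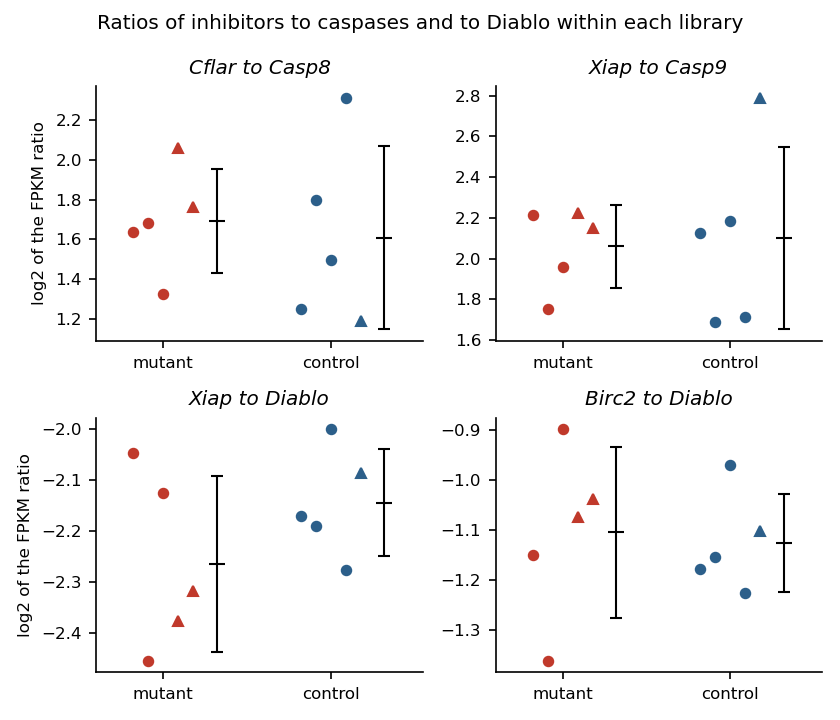
Log2 ratios of FPKM within each library for 4 pairs of an inhibitor and its partner, in 5 mutant and 5 control libraries. Symbols are libraries, triangles marking mutant 4, mutant 5 and control 5, and bars show mean ± SD. Groups overlap in all 4 pairs, and for Xiap to Diablo 3 mutants lie below all controls.

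Genes around the 8 were counted in 7 lists that hold 49 further genes. Of these 49, 31 were tested and 0 passed over all genes (limma). Their median log2 difference was 0.10, beside 0.11 for all tested genes, and 3 had an unadjusted p under 0.05, all with higher values in mutants (Tnfrsf21, Gsn and Add1), beside 7.69% of all tested genes.

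The list of other caspases held Casp1, Casp4, Casp12 and Casp14, all below the filter. In the apoptosome list, which held 3 genes, Apaf1 lay at 19.4, 19.8, 16.0, 13.5 and 13.2 FPKM in mutants 1 to 5 and at 12.4 to 15.6 FPKM in controls (log2 difference 0.19, limma adjusted p = 0.701). Its log2 difference was 0.40 in the first library set alone (unadjusted p = 0.0112, adjusted p = 0.169, limma) and 0.072 after rescaling. Apaf1 builds the platform for caspase 9 and is a known p53 target. Its 3 mutants of the first set lay above every control, and the mutants of the second set lay within the control range. In that second set, mutants 4 and 5 lay below control 5, which stood at 15.55 FPKM. Over all 13522 tested genes, the median log2 difference in the first set alone was 0.16, and 101 genes passed there. The share of genes with so small an unadjusted p in that set was not counted. The median ratio used for rescaling was 1.05 to 1.07 in mutants of that set and 0.860 to 1.06 in its controls, so scaling differed between them. Cycs, which encodes cytochrome c, averaged 46.1 ± 4.85 FPKM in mutants and 44.6 ± 7.78 FPKM in controls (log2 difference 0.057, adjusted p = 0.913).

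Of 8 other IAP genes 3 were tested. Birc6, a large ubiquitin ligase of this family, averaged 26.1 ± 5.04 FPKM in mutants and 20.7 ± 3.99 FPKM in controls (log2 difference 0.32, limma adjusted p = 0.587). For Birc6 the first library set alone gave 0.52 (unadjusted p = 0.0098, adjusted p = 0.165, limma). In the second set, mutants 4 and 5 stood at 20.5 and 24.0 FPKM, below control 5 at 24.4 FPKM. Birc5, which encodes survivin and acts mainly in mitosis, averaged 36.8 ± 7.21 FPKM in mutants and 31.3 ± 7.59 FPKM in controls (log2 difference 0.23, adjusted p = 0.696), and the second set held its highest libraries in both groups. In the list of IAP antagonists, 3 of 4 were tested, and beside Diablo the smallest p belonged to the septin gene Sept4, at 2.51 ± 0.277 FPKM in mutants and 2.77 ± 0.913 FPKM in controls (log2 difference -0.068, adjusted p = 0.922). On the caspase 2 platform, Pidd1, listed under its older name Lrdd, averaged 6.09 ± 1.82 FPKM in mutants and 4.93 ± 1.46 FPKM in controls (log2 difference 0.25, limma adjusted p = 0.731). For this gene the log2 difference was 0.59 in the first library set alone (unadjusted p = 0.0087, adjusted p = 0.158, limma) and 0.14 without mutant 1. In the second set, mutants 4 and 5 stood at 4.97 and 4.07 FPKM, below control 5 at 7.05 FPKM. For Birc6 and Lrdd, as for Apaf1, the share of all tested genes with so small an unadjusted p in the first set was not counted. The adaptor Cradd averaged 3.34 ± 0.620 FPKM in mutants and 3.08 ± 0.351 FPKM in controls (log2 difference 0.083, adjusted p = 0.856).

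On the death receptor side 8 of 16 genes were tested. Tnfrsf21, which encodes death receptor 6, stood at 4.22, 4.17, 5.09, 3.88 and 3.98 FPKM in mutants 1 to 5 and at 2.77, 3.16, 2.92, 3.25 and 3.53 FPKM in controls 1 to 5. The groups did not overlap, as deposited or after rescaling, beside 1.52% and 0.917% of all tested genes with all mutants above all controls. Among the 31 tested list genes outside the 8, Tnfrsf21 was the 1 gene without overlap. It did not pass over all genes (log2 difference 0.35, SE 0.11, unadjusted p = 0.0061, adjusted p = 0.357, limma). Ripk1, the kinase on which cIAP1 acts, averaged 3.02 ± 0.480 FPKM in mutants and 2.33 ± 0.491 FPKM in controls (log2 difference 0.28, adjusted p = 0.583).

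The other 8 genes of the death receptor list fell below the filter, among them Fas and Tnfrsf10b, both known p53 targets and chosen here after their values were seen. Fas stood at 0.438, 0.167, 0.270, 0.110 and 0.198 FPKM in mutants 1 to 5 and at 0, 0.0341, 0, 0 and 0.0481 FPKM in controls 1 to 5. The groups did not overlap, and 3 of 5 controls were listed at 0. Tnfrsf10b, which encodes the receptor of the death ligand Tnfsf10, stood at 2.35, 2.16, 2.04, 0.969 and 1.04 FPKM in mutants 1 to 5 and at 0.479, 0.692, 0.833, 0.690 and 0.995 FPKM in controls 1 to 5. The mutants of the first set lay above every control, and those of the second set lay on both sides of control 5. In a fit without the filter neither passed (unadjusted p = 0.0013 for Fas and 0.0047 for Tnfrsf10b, adjusted p = 0.345 and 0.490, limma).

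Over all lists, 18 genes lay below the filter, and 16 of these stayed under 1 FPKM in every library. In the fit without the filter 0 of the 18 passed (limma), beside 0.00745% of its 26845 genes. Of the 18, 4 had an unadjusted p under 0.05 with higher values in mutants, namely Fas, Tnfrsf10b, Casp4 and Naip5, beside 6.08% of all genes of that fit. Mutants lay above all controls for 2 of the 18, Fas and Casp4, beside 0.916% of genes below the filter. Casp4, an inflammatory caspase chosen after its values were seen, was listed at 0 in all 5 controls and at 0.0667, 0.0480, 0.0411, 0.165 and 0.0620 FPKM in mutants 1 to 5. Casp1, the caspase that processes interleukin 1 beta, lay at 0.609, 0.166, 0.536, 0.255 and 0.229 FPKM in mutants 1 to 5 and at 0.0477 to 0.237 FPKM in controls. These inflammatory caspases are known from microglia and macrophages, whose summed markers reached 131 FPKM in mutants and 65.5 FPKM in controls, and the part of those cells in these values was not tested.

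All 14 caspase substrates were tested. Of these, 13 had a log2 difference above 0, as did 75.7% of all tested genes, and 6 lay above the median of all tested genes. Their median was 0.103, beside 0.106 for all tested genes. Gsn, which encodes the actin-severing protein gelsolin, averaged 4.81 ± 1.09 FPKM in mutants and 3.30 ± 0.793 FPKM in controls (log2 difference 0.43, SE 0.17, unadjusted p = 0.0264, adjusted p = 0.510, limma). Add1, which encodes the membrane skeleton protein adducin, averaged 37.5 ± 2.48 FPKM in mutants and 30.8 ± 5.29 FPKM in controls (log2 difference 0.29, unadjusted p = 0.0303, adjusted p = 0.520, limma). Groups overlapped for both.

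**Figure D5:**
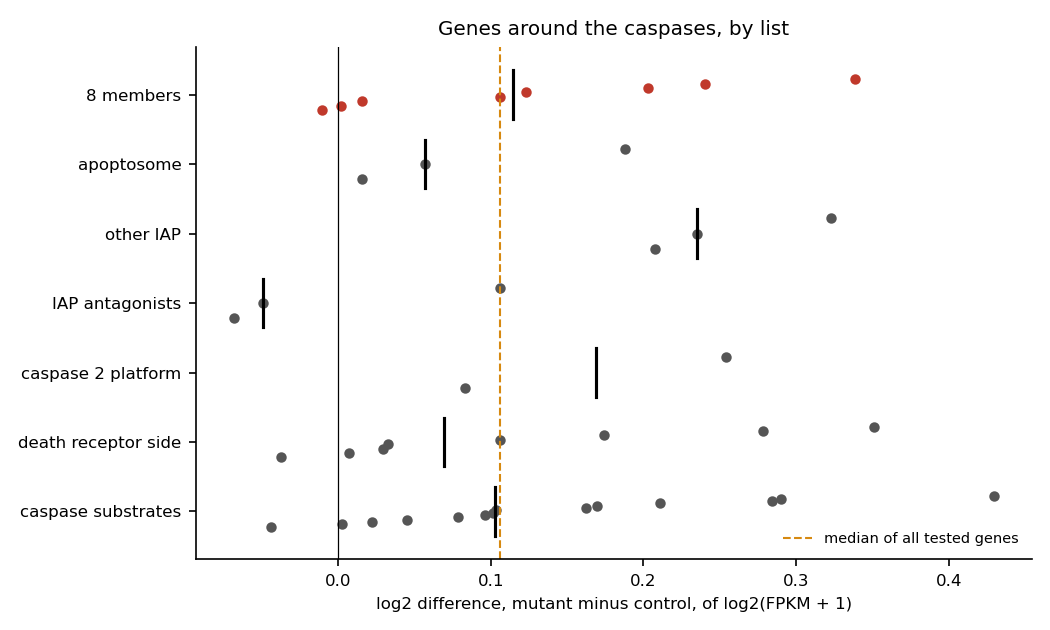
Log2 differences of log2(FPKM + 1), mutant minus control, of the tested genes of the 8-gene set (red) and of the 6 lists around it with tested genes (grey). Each point is a gene, short black lines are list medians, and the dashed line is the median of all tested genes at 0.11. The medians run from -0.049 for the IAP antagonists to 0.23 for the other IAP genes, and no gene plotted passed the test.

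For each of the 8 genes, the 3 most alike tested genes, leaving out predicted genes, pseudogenes and short non-coding RNAs, were taken by Pearson's r of log2(FPKM + 1) over the 10 libraries, as a description that shares library, depth and scaling. For Casp2 they were Agps (r = 0.985), Rnpc3 (0.970) and Nsmaf (0.953). For Cflar they were Map2k7 (0.895), Fzd8 (0.890) and Ccdc84 (0.890), of which Ccdc84 differed between mutants and controls (log2 difference 1.11, limma adjusted p = 0.0155). For Casp8 they were Nrp1, Ttyh2 and Ptgr2 (r from 0.930 to 0.952), for Casp9 Fam65b, Lsm14a and Zfp787 (0.924 to 0.948), and for Casp6 Usp3, Pde1b and Htra1 (0.760 to 0.806). For Xiap they were Zdhhc17, Rasa1 and Chic1 (0.920 to 0.937), for Birc2 Eif5a2, Lin7c and Pkia (0.9754 to 0.9815), and for Diablo Chuk, Snrnp27 and Tma7 (0.943 to 0.956). The comparison covered 11045 genes, and Casp6 had the lowest values of r among the 8.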

How the data were processed

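RNA sequencing of the dorsal telencephalon was compared between 5 mutant and 5 control libraries, grouped by their titles. The authors deposited FPKM values per gene symbol, 1 list per library. The submitters' processing notes name HISAT2 and GRCm38 (mm10). The program behind the values, its annotation and its strand setting were not given in the sources used here. Total RNA depleted of ribosomal RNA was made into stranded libraries, per the labels' protocols. Fragments per library are not stated and were estimated roughly from the step a single fragment adds. That step was shared by 56 to 102 of 972 to 1229 genes per library. Levels rest on few fragments below about 0.1 FPKM.

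A gene entered the test when 5 or more libraries had it at 1 FPKM or more. Values were taken as log2(FPKM + 1), and limma 3.58.1 was run under R 4.3.3 (trend and robust moderation, genotype as the term, Benjamini-Hochberg adjustment over all 13522 genes, threshold 0.05). Fold changes on this scale understate low genes. The test was checked on simulated data, where it recovered 46.6% of 1.5-fold and 82.6% of 2-fold changes, with 8 false calls. Changes were put only into genes whose control mean of log2(FPKM + 1) was above 2, and on that scale. Casp8 and Casp9 lie below this level, so the shares recovered do not speak for them or for other low genes. Smaller changes were not simulated. The noise was drawn independently for each gene and library, without the scaling and set differences that these libraries share. Other work used Python 3.11.15, pandas 2.3.3, SciPy 1.17.1 and matplotlib 3.10.9. Coordinates are from GENCODE M21 (GRCm38), which held 35718 of the symbols directly and 1783 under an older name, leaving 1302 unmatched. Promoter windows are from RefSeq (GRCm38.p6), where all 8 genes matched. The labels do not say that libraries came from separate embryos, so p-values measure the spread between these libraries, which may be technical. Named genes were the 8 members, the 2 genes with the smallest p in each list with no call, Rnu11, and for each member the 3 genes with the highest Pearson r. Htra2, Birc3 and other list genes are given as counts. Fas, Tnfrsf10b, Casp1, Casp4 and Naip5 fall outside this rule and were named after their values were seen. Alternatives covered pseudocount, filter, moderation, scaling, library set, Y-linked level, the replicate block and each library left out. Some genes of the pathway are not reported here. The members and lists were chosen with earlier results of these data known.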

Additional observations from a re-analysis of the deposited data

How the results depend on the processing

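No member and no gene of the lists passed under any alternative that tested it. The 18 list genes below the filter were tested only in the fit without the filter, so the other alternatives say nothing of them. Cflar, Casp2, Casp8 and Birc2 had a difference above 0 in every alternative that tested them, but its size moved. Cflar ran from 0.21 (quantile normalization) to 0.41 (without control 4), with adjusted p from 0.204 to 0.921. Casp2 ran from 0.12 (median ratio) to 0.31, Casp8 from 0.067 (quantile normalization; 0.12 by median ratio) to 0.32 (first set alone), and Birc2 from 0.0057 (median ratio) to 0.19. Genes below the stricter filter of 5 FPKM, Casp8 among them, have no value under it. Values near 0 changed sign, and the cause was not tested. Rescaling to a common median ratio gave -0.072 for Casp9, -0.11 for Casp6, -0.015 for Diablo, -0.064 for Cycs and -0.011 for Cradd. Quantile normalization gave -0.12 for Casp9, -0.15 for Casp6, -0.027 for Cycs and -0.062 for Cradd. Rescaling to protein-coding genes gave -0.023 for Casp9 and -0.047 for Casp6. The library set as a term gave -0.0054 for Cycs. The Y-linked covariate gave -0.053 for Casp9. The first set alone gave -0.12 for Casp6, 0.066 for Xiap and 0.064 for Sept4. With 1 library left out, the differences ran from -0.051 to 0.094 for Casp9, -0.090 to 0.093 for Casp6, -0.064 to 0.057 for Xiap, -0.0059 to 0.14 for Cycs and -0.21 to 0.035 for Sept4, and, with no change of sign, 0.071 to 0.19 for Birc2, 0.052 to 0.16 for Diablo, 0.14 to 0.37 for Lrdd, 0.12 to 0.26 for Apaf1, 0.16 to 0.36 for Birc5 and 0.026 to 0.13 for Cradd.

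The count over all genes, 21 (12 higher and 9 lower in mutants), was 2 with no filter, 11 without trend and robust moderation, 35 with quantile normalization (13 higher and 22 lower), 74 with the library set as a term, 2 with the Y-linked covariate and 101 in the first set alone. Rescaling gave 11 higher and 19 lower by median ratio, and 9 higher and 16 lower by protein-coding genes. With 1 library left out it ran from 2 (without control 1, control 2, mutant 2 or mutant 3) through 4 (control 3), 9 (mutant 1), 10 (mutant 5), 11 (control 4) and 26 (mutant 4) to 79 (control 5). With the replicate block 14 genes passed and no member. Same-numbered libraries did not deviate together in every pair (r from -0.11 to 0.52), so the numbers were not taken to pair them. At the estimated depths, Casp4 and Fas, under 0.5 FPKM in all libraries, rest on few fragments.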
